A study of Caenorhabditis elegans with 6 samples.

Results

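The 9 genes described here are *xol-1*, *her-1*, *tra-2*, *fem-1*, *fem-2*, *fem-3*, *tra-1*, *mab-3* and *dmd-3*, which together form the core of the sex determination pathway of *C. elegans*. They were chosen by name from textbook knowledge of the pathway, with earlier results of these data known. All 9 were found among the 46661 genes of the deposited tables. RNA was sequenced from whole L4 larvae of N2, the wild-type strain, and of *folr-1(syb4116)*, which has a premature stop codon early in the folate receptor gene *folr-1*. The mutant strain carries a single allele made by CRISPR/Cas9 editing, and it was outcrossed with N2. Both strains received HT115 bacteria with the empty vector that serves as the control for RNAi, and each strain has 3 biological replicates. The labels do not state the sex of the collected animals.

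Sex in *C. elegans* is set by the number of X chromosomes relative to the autosomes. Animals with a pair of X chromosomes become hermaphrodites, which make sperm during the L4 stage and oocytes afterwards, and animals with a single X become males. The signal passes through a chain of genes that act against each other. XOL-1 promotes male development in the embryo, HER-1 is a secreted protein that inactivates the membrane receptor TRA-2, TRA-2 holds the FEM proteins in check, and the FEM proteins direct the destruction of TRA-1. TRA-1, a zinc finger protein of the GLI family, represses male genes, among them *mab-3* and *dmd-3*, whose products are transcription factors with a DM domain.

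The libraries held between 21646678 and 25946226 counted reads. After genes with few reads were set aside, 15432 were tested with edgeR, and 561 were higher and 512 were lower in *folr-1(syb4116)* animals at an adjusted p-value under 0.05. This is 6.95% of the tested genes, 3.64% in the higher and 3.32% in the lower direction. The mutated gene had between 32 and 59 reads in the N2 libraries and between 7 and 14 in the mutant libraries, and its log2 fold change was -2.02 (SE 0.31).

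Among the 9 genes, the male transcription factor gene *mab-3* was lower in *folr-1(syb4116)* animals, to about 0.495 of its N2 level, while the 5 genes from *tra-2* to *tra-1* had log2 fold changes between -0.07 and 0.01. Of the 7 genes that passed the filter, 1 was called lower and 0 were called higher by edgeR, and the median log2 fold change was -0.01, where all tested genes had a median of 0.003. The share called lower among all tested genes was 3.32%, so 1 call in 7 genes is no result about the pathway as a group. At an unadjusted p under 0.05 the numbers were also 1 and 0 (20.2% of all tested genes were at that level, 9.91% in the lower direction), and DESeq2 and limma-voom each called the same gene and no other. The remaining genes, *her-1* and *dmd-3*, had too few reads to pass the filter, and their reads are given below one by one.

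**Figure D1:**
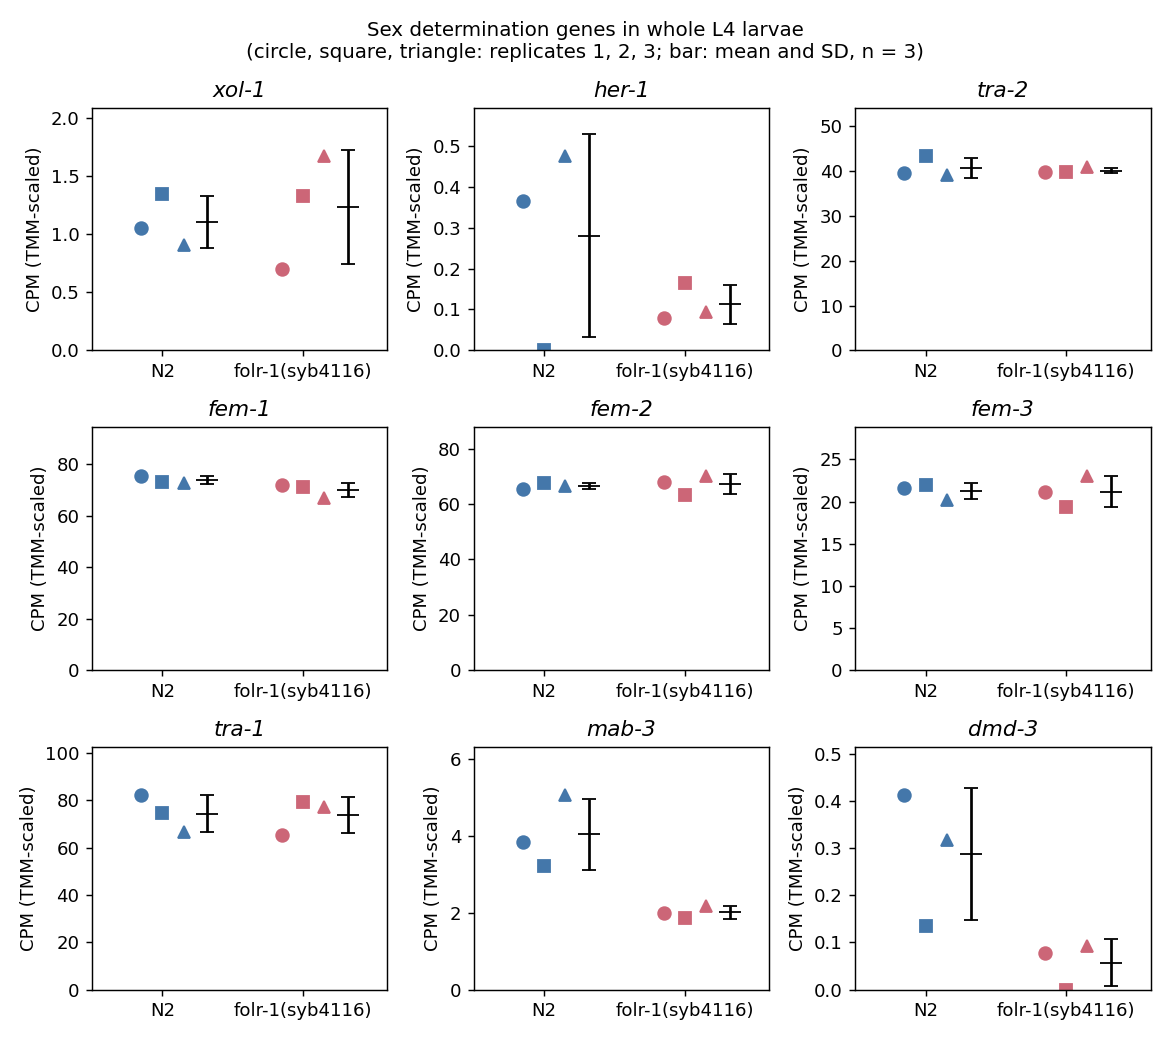
Scaled read counts of the 9 genes in each of the 6 libraries. The y axis is CPM (reads scaled to a common library size by TMM, on a linear axis that starts at 0), each symbol is one library and the bars give the mean and SD of 3 libraries. For *mab-3* the N2 libraries lie between 3.23 and 5.06 CPM and the mutant libraries between 1.86 and 2.19, while for *tra-2*, *fem-2*, *fem-3* and *tra-1* the strains overlap.

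Levels of different genes can be compared only per unit of gene length, so the deposited FPKM values (reads scaled by library and by gene length) were used for this. In N2 the order from high to low was *fem-2*, *fem-1*, *tra-1*, *fem-3*, *tra-2*, *mab-3*, *xol-1*, *her-1* and *dmd-3*. The highest, *fem-2*, had an FPKM of 37.1 ± 0.528 (SD, n = 3), and *fem-1* followed with 31.7 ± 0.721 (SD, n = 3). The FPKM of *tra-1* was 19.8 ± 2.09 (SD, n = 3). The FPKM of *fem-3* was 12.6 ± 0.576 (SD, n = 3), and that of *tra-2* was 8.03 ± 0.445 (SD, n = 3). These 5 genes of the middle of the pathway thus stood well above the male-promoting genes at both of its ends. The FPKM of *mab-3* was 2.41 ± 0.553 (SD, n = 3) in N2, and those of *xol-1*, *her-1* and *dmd-3* were 0.701, 0.529 and 0.305. From *fem-2* down to *xol-1*, the N2 libraries of each gene did not overlap with those of the next gene in the order. The N2 ranges of *xol-1*, *her-1* and *dmd-3* overlapped, so their order in N2 is not separated by the spread between libraries. The *folr-1(syb4116)* libraries gave the same order of the 9 genes, and there no gene overlapped with its neighbour.

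The gene at the top of the chain, *xol-1* (C18A11.5, WBGene00006962), lies on chromosome X from 8041313 to 8044409 in the WBcel235 annotation, the build named in the processing notes. It encodes a protein related to small-molecule kinases and acts in early embryos. It had 23, 30 and 23 reads in N2 replicates 1, 2 and 3 and 18, 32 and 36 reads in those of *folr-1(syb4116)*. The strains overlapped, with the lowest and the highest value both in mutant libraries. The log2 fold change was 0.15 with a 95% interval from -0.52 to 0.82 (adjusted p = 0.849, edgeR's quasi-likelihood test). With so few reads the interval is wide, and the smallest change of *xol-1* that could be detected was not computed.

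*her-1* (ZK287.8, WBGene00001842; chromosome V, 9697015 to 9702035) encodes the secreted signal that inactivates TRA-2, and it is transcribed mainly in males. It had 8, 0 and 12 reads in N2 replicates 1 to 3, and 2, 4 and 2 reads in the *folr-1(syb4116)* replicates. The N2 libraries included both the highest value and the only value of 0, so the strains overlapped (two-sided exact permutation test on CPM, p = 0.4, where 0.1 is the smallest that 3 libraries a strain can give). Pooled over libraries, N2 had 20 reads and the mutant 8, a ratio of mutant to N2 of 0.390 with a 95% interval from 0.149 to 0.924 that covers counting error only. The log2 of this ratio was -1.36 and became -0.69 without N2 replicate 3. When the filter on low counts was left out, *her-1* had an adjusted p of 0.423 in edgeR's test.

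*tra-2* (C15F1.3, WBGene00006605; chromosome II, 6955384 to 6965673) encodes the receptor that HER-1 binds, and it promotes female development. Its scaled counts were 39.6, 43.3 and 39.1 CPM in N2 and 39.8, 39.7 and 40.8 CPM in *folr-1(syb4116)*. All mutant values fell inside the N2 range, and the log2 fold change was -0.02 with a 95% interval from -0.14 to 0.09 (adjusted p = 0.876, edgeR's quasi-likelihood test). The annotated exons of *tra-2* share 26 bp with *ceh-38* on the opposite strand, where reads could be counted for either gene. Gene counts also do not separate its 3 annotated transcripts, and control of *tra-2* by translation leaves no trace in them.

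The fem genes act together. FEM-1 is an ankyrin repeat protein that brings substrates to a CUL-2 ubiquitin ligase, FEM-2 is a protein phosphatase and FEM-3 is the partner that TRA-2 binds. *fem-1* (F35D6.1, WBGene00001411; chromosome IV, 5533140 to 5537962) had 75.5, 72.9 and 72.5 CPM in N2 and 72.0, 71.1 and 67.0 CPM in *folr-1(syb4116)*. Every mutant library was below every N2 library, but the shift was small, at -0.07 on the log2 scale (95% interval -0.17 to 0.02, adjusted p = 0.402, edgeR). Of all tested genes, 12.9% were separated in this way in the lower direction and 25.1% in either direction, and among the 7 tested genes here these were *fem-1* and *mab-3*.

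*fem-2* (T19C3.8, WBGene00001412; chromosome III, 632019 to 634626) had between 65.5 and 67.5 CPM in N2 and between 63.2 and 70.2 CPM in the mutant. The N2 range lay inside the mutant range, and the 95% interval of the log2 fold change ran from -0.09 to 0.11. *fem-3* (C01F6.4, WBGene00001413; chromosome IV, 9104966 to 9107607) had between 20.2 and 22.0 CPM in N2 and between 19.3 and 23.1 CPM in the mutant, with an interval from -0.17 to 0.16. For both genes the mutant libraries spread more widely than the N2 libraries, with coefficients of variation of 5.35% against 1.51% for *fem-2* and 8.85% against 4.51% for *fem-3*. These spreads rest on 3 libraries a strain and were not compared with a test.

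*tra-1* (Y47D3A.6, WBGene00006604; chromosome III, 11170890 to 11195201), the last gene of the chain, had 82.1, 74.6 and 66.6 CPM in N2 and 65.2, 79.3 and 77.3 CPM in *folr-1(syb4116)*. Its lowest and highest libraries were *folr-1(syb4116)* replicate 1 and N2 replicate 1, and the strains overlapped almost fully. The log2 fold change was -0.01 with a 95% interval from -0.17 to 0.15 (adjusted p = 0.961, edgeR's quasi-likelihood test). Among the 5 well-expressed genes from *tra-2* to *tra-1*, the coefficient of variation of *tra-1* was the highest in both strains, at 10.5% in N2 and 10.3% in the mutant. Taking the 95% intervals of these 5 genes as ratios, the lowest bound was 0.890 of N2 and the highest was 1.12, so larger changes lie outside the intervals.

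In the hermaphrodite germline, the balance between TRA-2 and FEM-3 decides between oocytes and sperm. The ratio of the transcripts of *tra-2* and *fem-3* can be read within each library, without scaling between libraries. It is a ratio of RNA from whole larvae, so it does not measure the balance of the proteins in germ cells. On the log2 scale of FPKM the ratio was -0.71, -0.61 and -0.63 in N2, with a mean of -0.65 ± 0.0517 (SD, n = 3). The mutant libraries gave -0.68, -0.55 and -0.77, with a mean of -0.66 ± 0.109 (SD, n = 3). The difference of -0.01 was smaller than the spread between libraries of either strain (two-sided exact permutation test, p = 1).

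*mab-3* (Y53C12B.5, WBGene00003100; chromosome II, 9732137 to 9738035) encodes a DM domain transcription factor that TRA-1 represses. In males it is needed for sensory rays of the tail and for keeping yolk genes silent in the intestine. The N2 libraries had 84, 72 and 128 reads, and the *folr-1(syb4116)* libraries had 51, 45 and 47. After scaling, this was 3.84, 3.23 and 5.06 CPM in N2 and 1.99, 1.86 and 2.19 CPM in the mutant. Every mutant library lay below every N2 library, and the mutant libraries lay closer together than the N2 libraries. The mean fell from 4.05 ± 0.930 CPM (SD, n = 3) to 2.01 ± 0.161 CPM (SD, n = 3).

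The log2 fold change of *mab-3* was -1.01 with an SE of 0.19 and a 95% interval from -1.42 to -0.61 (edgeR, adjusted p = 0.00310). Only 1.26% of all tested genes had a larger absolute log2 fold change, counting both directions. The call held in all 18 alternatives, with log2 fold changes from -1.15 to -0.62, the weakest of them being limma on log2(FPKM + 1), where the pseudocount shrinks changes of low genes. Without N2 replicate 3, which had the most reads, the log2 fold change was -0.81 (adjusted p = 0.0220, edgeR's test). Since whole animals were sequenced, fewer cells with *mab-3* transcripts and fewer transcripts per cell cannot be told apart, here and for each gene below. The same holds for a different share of animals of one sex.

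*dmd-3* (Y43F8C.10, WBGene00012832; chromosome V, 19650025 to 19655251) encodes a second DM domain protein, which acts with MAB-3 when the male tail tip is reshaped at the end of the L4 stage. It had 9, 3 and 8 reads in N2 and 2, 0 and 2 in *folr-1(syb4116)*. After scaling, the N2 values ran from 0.135 to 0.412 CPM and the mutant values from 0 to 0.0930 CPM, without overlap. Among the 645 untested genes with 20 to 30 reads over all libraries, 9.61% were likewise lower without overlap, and the separation of *dmd-3* has to be read against that share. Pooled, N2 had 20 reads and the mutant 4, a ratio of mutant to N2 of 0.195 with a 95% interval from 0.0485 to 0.582 (counting error only). The log2 ratio of -2.36 became -1.76 without *folr-1(syb4116)* replicate 2. When genes with few reads were also tested, edgeR gave *dmd-3* a log2 fold change of -2.25 (unadjusted p = 0.0111, adjusted p = 0.116), which was not past the threshold. That test called 3.22% of all genes lower and 7.05% in either direction.

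The 3 male-promoting genes at the ends of the pathway whose reads favoured N2 were *her-1*, *mab-3* and *dmd-3*. They are grouped here by that direction, only *mab-3* was called, and the strains overlapped for *her-1*. *xol-1* went the other way, with 76 pooled reads in N2 and 86 in the mutant. Within N2, replicate 2 had the fewest reads of *her-1*, *mab-3* and *dmd-3*, with 0, 72 and 3, and the most of *xol-1*, with 30. Male animals carry further transcripts that hermaphrodites largely lack, and a list of 11 genes of male sensory neurons was examined for this. The list includes *lov-1* and *pkd-2*, which encode polycystins of male mating neurons, but *klp-6* and *cil-7* of the same list are also used by neurons of hermaphrodites. Summed over the list, the N2 libraries had between 4.39 and 5.08 CPM and the mutant libraries between 1.86 and 2.74, without overlap. Sums of some other lists separated too, as given below. N2 replicates 1, 2 and 3 had 5.08, 4.58 and 4.39 CPM in the sum of the male neuron genes. Gene by gene, N2 replicate 2 had the fewest N2 reads of *cil-7*, *cwp-1*, *cwp-2* and *trf-1*, and the most of *klp-6* and *cwp-4*. For *pkd-2* and *cwp-5* the fewest were in N2 replicate 1, with 14 and 7, and for *cwp-3* in replicate 3, with 1. N2 replicates 1 and 2 both had 13 reads of *lov-1*. These reads are unscaled, and by CPM *cil-7* was lowest in N2 replicate 3, at 0.712 against 0.763 in replicate 2. The source of these differences among N2 libraries was not tested.

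Of the 6 genes of that list that passed the filter, 2 were lower, 0 were higher and 4 did not pass the test, and their median log2 fold change was -0.63. Over all tested genes 3.32% were called lower, and 2 calls among 6 genes that were tested are a small number to set against that share. The lower genes were *lov-1*, with 13, 13 and 21 reads in N2 and 2, 2 and 0 in the mutant, and *pkd-2*, with 14, 18 and 24 reads in N2 and 4, 1 and 4 in the mutant. *cil-7*, at -1.22 on the log2 scale, missed the threshold (adjusted p = 0.0653, edgeR), and *klp-6* had 16, 19 and 10 reads in N2 and 18, 16 and 11 in the mutant. Among the untested genes, *cwp-1* had 7, 4 and 7 reads in N2 and none in the mutant libraries, and *cwp-2* had 10, 4 and 6 against 1 in each mutant library. Of untested genes with 20 to 30 reads over all libraries, 9.61% were lower in the mutant without overlap. Other genes of the list did not fall. *cwp-4* had 6, 12 and 8 reads in N2 and 12, 5 and 12 in the mutant. For *cwp-5* the reads were 7, 10 and 11 against 7, 8 and 13. The untested *trf-1* had 5, 3 and 5 against 2, 4 and 8. *srj-54*, a chemoreceptor gene, was at 0 in all 6 libraries. The list was compiled with earlier results of these libraries known, including those of *lov-1*, *pkd-2* and *mab-3*, so it is not independent of them. Both calls were lost with limma on log2(FPKM + 1) or log2(FPKM + 0.1), and neither gene passed a filter of at least 10 counts in every library, while 4 genes of the list were lower when no filter was used. The part of male transcripts in the fall of *mab-3* was not tested.

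**Figure D2:**
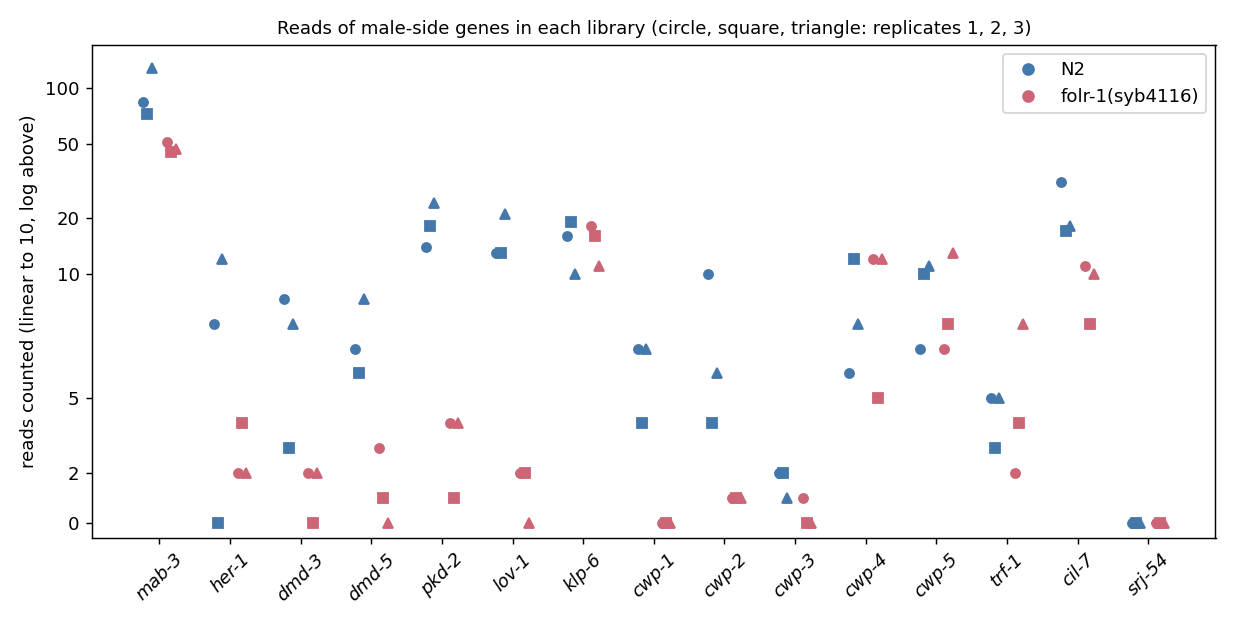
Reads counted in each library for *mab-3*, *her-1*, *dmd-3*, *dmd-5* and the 11 male neuron genes. The y axis is the unscaled number of reads, linear up to 10 and logarithmic above, and each symbol is one library. For *pkd-2*, *lov-1*, *cil-7*, *cwp-1* and *cwp-2* all N2 libraries lie above all mutant libraries, as for *mab-3*, *dmd-3* and *dmd-5*. The strains overlap for *her-1*, *klp-6*, *cwp-4*, *cwp-5* and *trf-1*. By scaled counts, 12.9% of all tested genes were lower in the mutant without overlap. Among the untested genes with 20 to 30 reads over all libraries the share was 9.61%.

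The vitellogenin genes encode yolk proteins, and MAB-3 represses them in males. All 6 were tested, and 1 was higher, 0 were lower and 5 did not pass. With 3.64% of all tested genes called higher, 1 call in 6 genes is no result about the list. The higher gene was *vit-3*, with a log2 fold change of 0.23 (adjusted p = 0.0310, edgeR's test). Its neighbours on the list, *vit-4* and *vit-5*, had log2 fold changes of 0.19 and -0.01. Coding sequences of these vitellogenin genes are nearly the same, so reads may have been divided between them. The number of vitellogenin genes called higher was 0 with DESeq2 and without N2 replicate 1 or 3 or *folr-1(syb4116)* replicate 1 or 3, 2 without N2 replicate 2 or with a correction for gene length, and 3 when no filter on low counts was used.

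The rest of the pathway was read from a list of 45 further genes, of which 39 were tested. Of these, 1 was higher and 3 were lower in *folr-1(syb4116)*, 10.3% against 6.95% of all tested genes, and the median log2 fold change was -0.03. All 8 genes that read the X dose or repress *her-1* were tested, and 0 were called by edgeR, by DESeq2 or at an unadjusted p under 0.05. Of all tested genes 20.2% were at that unadjusted level, so 0 in 8 genes is no result about the list. *sdc-2*, the hermaphrodite-specific repressor of *her-1*, had 422, 428 and 521 reads in N2 and 444, 503 and 452 in the mutant, with a 95% interval of the log2 fold change from -0.18 to 0.17. Of the 19 tested genes that modify tra-2, the fem genes or tra-1, 1 was higher and 2 were lower. The higher gene was *mog-3*, which is needed for the switch from sperm to oocytes, with a log2 fold change of 0.17 (adjusted p = 0.0420). The lower genes were *mog-5*, which encodes an RNA helicase of the same switch, and *puf-8*, a Pumilio family gene, with log2 fold changes of -0.15 and -0.17 (adjusted p = 0.0343 and 0.0363, edgeR's test). All 3 calls were lost with DESeq2, with limma on FPKM, without N2 replicate 2 or 3 and without *folr-1(syb4116)* replicate 1. Those of *mog-5* and *puf-8* were also lost without *folr-1(syb4116)* replicate 2, and those of *mog-3* and *puf-8* without *folr-1(syb4116)* replicate 3.

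**Figure D3:**
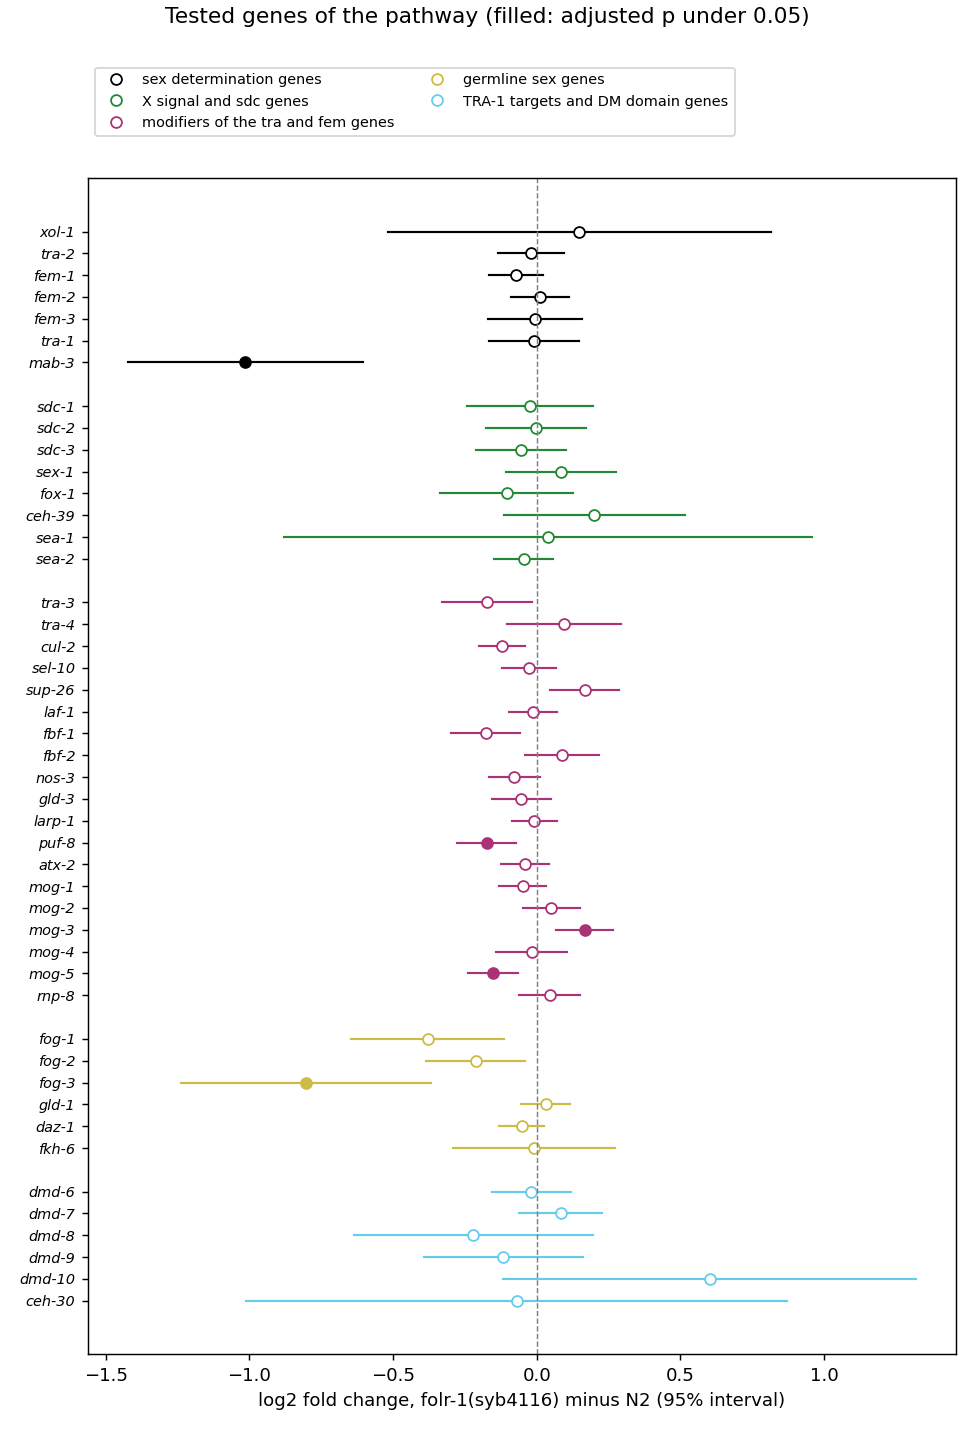
Log2 fold changes of the 7 tested sex determination genes and the 39 tested genes of the wider pathway. The x axis is the log2 fold change of *folr-1(syb4116)* minus N2 from edgeR, lines are 95% intervals and filled points have an adjusted p under 0.05. *mab-3* at -1.01 and *fog-3* at -0.80 lie farthest to the left, and *tra-2*, *fem-1*, *fem-2*, *fem-3* and *tra-1* lie within 0.1 of 0.

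Among the germline sex genes, *fog-3* was lower. It encodes a Tob family protein that germ cells need to become sperm, and TRA-1 controls its transcription directly. The N2 libraries had 77, 73 and 94 reads and the mutant libraries 59, 57 and 28, and the CPM fell from 3.51 ± 0.220 (SD, n = 3) to 1.99 ± 0.597 (SD, n = 3). The strains did not overlap, and *folr-1(syb4116)* replicate 3 was far below the other mutant libraries. Its log2 fold change of -0.80 had an SE of 0.21 (edgeR, adjusted p = 0.0246). Without that replicate it was -0.59 (adjusted p = 0.0967). The call was also lost without N2 replicate 1 (adjusted p = 0.0567) and without N2 replicate 3 (adjusted p = 0.0724). Limma on log2(FPKM + 1) or log2(FPKM + 0.1) and the stricter threshold of the methods lost it as well.

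*fog-1*, which encodes an RNA-binding protein that acts with FOG-3, had 212, 260 and 220 reads in N2 and 195, 164 and 187 in the mutant. Its strains did not overlap after scaling, and its log2 fold change of -0.38 did not pass the test (adjusted p = 0.0866, against 0.0419 without N2 replicate 3 and 0.0221 when no filter was used). *fog-2*, which encodes an F-box protein that lowers translation of *tra-2* together with GLD-1, also did not overlap, with a log2 fold change of -0.21 (adjusted p = 0.142). *gld-1* itself had between 14299 and 15143 reads in N2 and between 14214 and 16712 in the mutant, with a log2 fold change of 0.03. Of the 6 germline sex genes, 1 was thus lower and 5 did not pass, where 3.32% of all tested genes were called lower and 12.9% were lower without overlap. A single call in 6 genes is no result about the list.

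The remaining DM domain genes and TRA-1 targets gave 0 calls among 6 tested genes with edgeR or DESeq2, and 0 at an unadjusted p under 0.05. Over all tested genes 6.95% were called by edgeR and 20.2% were at that unadjusted level, so 0 in 6 genes is no result about the list. The largest log2 fold change was that of *dmd-10*, at 0.60, where *folr-1(syb4116)* replicate 1 had 48 reads and all other libraries had between 16 and 26. *dmd-5*, singled out after its reads were seen and too low to be tested, had 7, 6 and 9 reads in N2 and 3, 1 and 0 in the mutant. *egl-1*, a cell death activator that TRA-1 represses in neurons, was also too low to be tested, with 7, 4 and 10 reads in N2 and 10, 10 and 11 in the mutant.

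Because the pathway also acts in germ cells, its levels were set beside markers of sperm, oocytes and germ cells. Of 16 sperm genes, 4 were lower, 0 were higher and 12 did not pass, and the median log2 fold change was -0.14. This is 25% called lower, where the share over all tested genes was 3.32%. The list, like the others, was compiled with earlier results of these data known. Their summed level was between 652 and 662 CPM in N2 and between 585 and 610.5 CPM in the mutant, without overlap. The lower genes with the smallest adjusted p were *fer-1*, a ferlin gene needed for sperm activation, and *spe-15*, a myosin gene, with log2 fold changes of -0.42 and -0.21 (adjusted p = 2.25e-04 and 0.00235, edgeR's test). The call of *fer-1* was lost with limma on log2(FPKM + 1) or log2(FPKM + 0.1) and at the stricter threshold of the methods. That of *spe-15* was lost only at the stricter threshold. The other lower genes were *spe-6* and *spe-9*. The number of lower sperm genes was 2 with DESeq2, without N2 replicate 2 or 3 and without *folr-1(syb4116)* replicate 2 or 3.

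Of 11 oocyte genes, *puf-5* was higher (log2 fold change 0.18), *chs-1* was lower (log2 fold change -0.19) and 9 did not pass, with a median of -0.02 and summed levels that overlapped. Over all tested genes 6.95% were called in either direction. Both calls were lost without N2 replicate 1. That of *puf-5* was also lost without N2 replicate 3 or *folr-1(syb4116)* replicate 1 or 3, and that of *chs-1* without N2 replicate 2 or *folr-1(syb4116)* replicate 2. Of 10 germ cell genes, 0 were called by edgeR or DESeq2 and 3 were lower at an unadjusted p under 0.05, with a median of -0.05. At that level 9.91% of all tested genes were lower. Their summed level was between 1770 and 1809 CPM in N2 and between 1683 and 1720 CPM in the mutant, without overlap. The sum of the 19 genes that modify tra-2, the fem genes or tra-1 separated too. It was between 2279 and 2338 CPM in N2 and between 2255 and 2274 CPM in the mutant. Sums of the germline sex genes, the TRA-1 targets, the X signal genes and the vitellogenin genes overlapped. How often sums of other genes separate was not counted. The part of the sperm and germ cell transcripts in the levels of *fog-3* and *mab-3* was not tested.

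**Figure D4:**
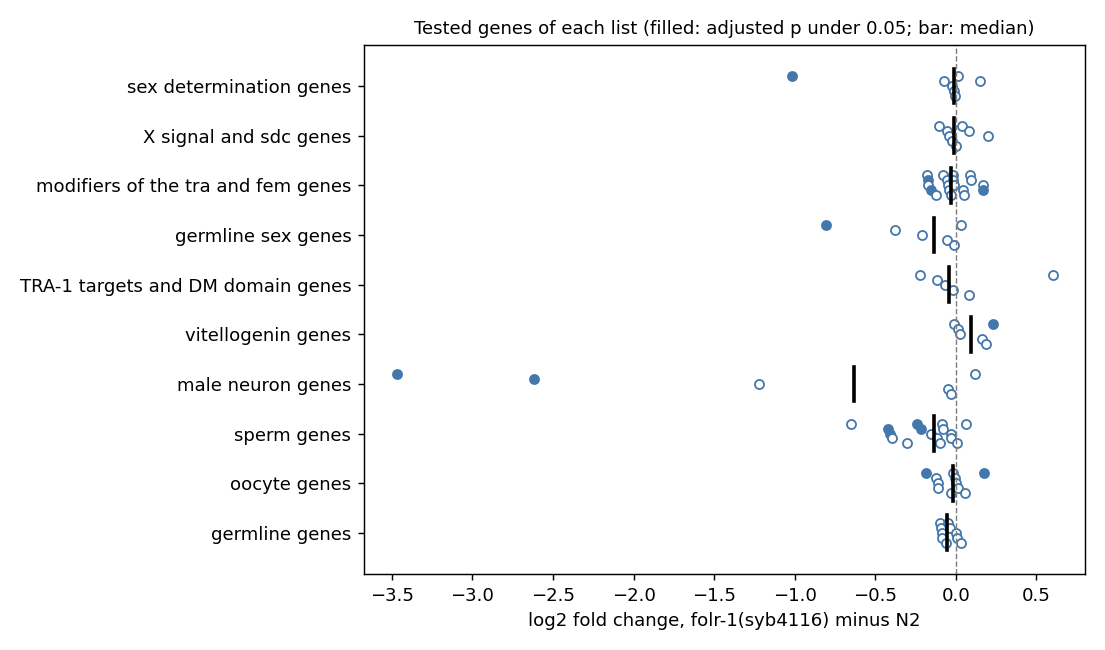
Log2 fold changes of the tested genes in each list. The x axis is the log2 fold change of *folr-1(syb4116)* minus N2, each point is one gene, filled points have an adjusted p under 0.05 and black bars are medians. The median of the male neuron genes is -0.63 and that of the sperm genes -0.14, while that of the sex determination genes is -0.01.

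For *mab-3*, the only gene of the 9 past the threshold, the tested genes with the most similar pattern were F01G10.5, *msp-79* and *try-7*. Pearson's r of log2 CPM with *mab-3* over the 6 libraries was 0.990 for each of them. *msp-79* belongs to the large family of nearly identical genes for major sperm protein, and its log2 fold change was -0.28, much smaller than that of *mab-3*. The points share the difference between the strains, and 63 tested genes had an r over 0.95, so the likeness is a description only.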

How the data were processed

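The authors cleaned paired-end reads with fastp, mapped them with HISAT2 and counted them per gene with featureCounts, and WBcel235 is the build in their processing notes. The annotation release is not given in the sources used here. They deposited raw read counts and FPKM (RPKM in the methods), made by the authors from the counts, gene length and one scaling factor per library. Protocols name both directional and non-directional libraries, so strand use in counting is unknown.

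Symbols and positions came from the WBcel235 annotation, in which 46180 of 46661 genes were matched, and 106 of 108 listed symbols were found (not *mog-6* and *dmd-11*). Counts were filtered with filterByExpr, scaled by TMM and tested with edgeR 4.0.16 (glmQLFit, glmQLFTest, strain as the only term) in R 4.3.3, with Benjamini-Hochberg adjustment over all tested genes and a threshold of 0.05. The standard error is the absolute log2 fold change divided by the square root of F. Ratios of pooled counts have exact binomial 95% intervals. Intervals from counts cover counting error only. The procedure was run on simulated counts, where edgeR recovered 200 of 200 genes changed by a fold of 2 and made 19 false calls. The changed genes were drawn from well-counted genes, so genes with few reads, such as *lov-1* and *pkd-2*, were not covered. All genes had one coefficient of variation between replicates, 0.0498, where that of *mab-3* was 0.122.

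Within a strain, libraries differed beyond sampling noise (chi-square divided by its degrees of freedom, 3.25 to 8.57), and each was kept as its own replicate. P-values measure the spread between biological replicates as labelled. The replicate numbers share no stated batch.

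The genes and lists were chosen with earlier results of these data known. All 9 genes are named. Of other lists, the rule was to name genes past the threshold and genes that open a step. Where more than 5 passed, the 2 with the smallest adjusted p in each direction were to be named. Further genes that did not pass or were not tested are named outside this rule. Among them are *cil-7*, *klp-6*, the cwp genes, *trf-1*, *srj-54*, *vit-4*, *vit-5*, *fog-1*, *fog-2*, *dmd-5*, *dmd-10* and *egl-1*. For *mab-3*, the 3 genes with the highest r (prior count of 2) are named. The interval from 20 to 30 reads, the pooled ratios and the ratio of *tra-2* to *fem-3* were chosen after the values were seen. Alternatives were DESeq2 1.42.0 with its own or TMM size factors, limma-voom (limma 3.58.1), RLE factors, no filter, a minimum of 10 counts per library, limma on FPKM after log2 with a pseudocount of 1 or 0.1, a replicate block, a lowess correction for gene length (span 0.3) alone or together with the block, omission of each library, and the stricter threshold of the methods (adjusted p under 0.005 and absolute log2 fold change over 1). Promoter sequences were not analysed here.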

Additional observations from a re-analysis of the deposited data

How the results depend on the processing

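The call of *mab-3* held in all 18 alternatives, and no other of the 9 genes was called in any of them. Omitting one library at a time gave it log2 fold changes from -1.15 to -0.81. Log2 fold changes near 0 changed sign. With the length correction, *tra-1* and *tra-2* moved to 0.032 and 0.043, and to 0.032 and 0.044 with the replicate block added. With each library left out, the range was -0.085 to 0.076 for *tra-1*, -0.049 to 0.025 for *tra-2*, -0.020 to 0.053 for *fem-2*, -0.067 to 0.057 for *fem-3* and -0.12 to 0.44 for *xol-1*. None of these passed the threshold. Same-numbered libraries did not deviate together (r = -0.0232, -0.0450 and 0.0133), so the replicate block is given here only. With this block for replicate number, *mab-3* was at -0.99 (adjusted p = 0.00514, edgeR), and 459 genes were higher and 406 lower over all tested genes. Not every library correlated best with its own number.

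The number of called genes on the 9 other lists, 13 in all, changed with the processing. The calls of *mog-3*, *mog-5*, *puf-8*, *spe-6*, *spe-9*, *puf-5* and *chs-1* were lost with the replicate block. The number was 7 with DESeq2 and either set of size factors, 2 with limma on log2(FPKM + 1) or log2(FPKM + 0.1), 6 with the replicate block, 8 with the block and the length correction, 2 at the stricter threshold, and 6 to 8 with each library left out. The cause was not tested. The counts over all genes differed by more than 1.5 times from 561 higher and 512 lower with no filter (894 higher), with limma on log2(FPKM + 1) (310 and 268) and log2(FPKM + 0.1) (309 and 274), without N2 replicate 2 (335 and 337), without *folr-1(syb4116)* replicate 2 (363 higher) or 3 (372 higher), and at the stricter threshold (4 and 138). Depth limits *her-1* and *dmd-3*, with 28 and 24 reads in all libraries together. Leaving out each library gave log2 ratios from -1.92 to -0.69 for *her-1* and from -2.84 to -1.76 for *dmd-3*, chosen as alternatives after seeing the data.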
